A study of Mus musculus with 12 samples.

Results

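SCA1 mice that had run on wheels were set against wild-type (WT) mice that had neither the mutation nor a wheel. The first group, SCA1 exercise, held 3 mice (numbers 55, 122 and 198) and the second, WT sedentary, also 3 (116, 117 and 192), so 6 of the 12 cerebellar RNA libraries of the study entered the comparison directly. They were chosen by the genotype and treatment given for each library, with no measured value used. The comparison asks how far the cerebellum of treated mutants lay from the untreated healthy state, gene by gene.

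SCA1 mice were heterozygous knock-in animals, labelled Het, of the Atxn1 154Q/2Q line, in which 1 of the mouse's own Atxn1 copies carries a long CAG repeat, so the mutant protein is made wherever the gene is active and not in a chosen cell type. WT mice were their C57BL/6J littermates, and the age given for all is 16 weeks. Tissue was taken after the last of the study's behavioural tests, which began at about that age. Exercised mice lived alone with a free running wheel for 12 weeks from the age of 4 weeks, with the wheel taken out 72 hours before behavioural testing, whereas sedentary mice shared a cage and had no wheel. The remaining groups, SCA1 sedentary and WT exercise, also had 3 mice each. Genotype, wheel running and housing therefore all differed between the groups compared, and their parts in any difference cannot be told apart here.

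Ataxin-1 is a nuclear protein that works with the transcriptional repressor Capicua, and a long polyglutamine tract in it causes spinocerebellar ataxia type 1. Purkinje cells, the large GABAergic neurons that carry the only output of the cerebellar cortex, are the cells best known to suffer from it. They receive parallel fibres from granule cells and a climbing fibre from the inferior olive, and they lose calcium-handling and signalling transcripts early in mouse models of the disease. The choroid plexus of the fourth ventricle, an epithelium that makes cerebrospinal fluid, and the brainstem lie against the cerebellum and can be taken with it.

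Each library held between 20556802 and 32127508 counts on genes. The sex of the mice was read from chromosome Y genes and Xist: the 3 WT sedentary mice were male, whereas SCA1 exercise mice 55 and 122 were female and mouse 198 male, so sex too was unequal between the groups. Mouse 55, and mouse 16 of the SCA1 sedentary group, stood apart from the other 10 libraries, with 6.33% and 6.38% of read pairs mapping to several places against 2.08% to 3.46%. Mouse 55 also held transcripts of the brainstem that the WT sedentary libraries nearly lacked, as given below, so the main results are also given without it.

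No gene passed the threshold for a differentially expressed gene (DEG), an edgeR quasi-likelihood adjusted p under 0.05 with an absolute log2 fold change (log2FC) over 0.5. Of 20341 genes tested, 0 (0%) were DEGs, and the lowest adjusted p by edgeR was 0.561. At an unadjusted p under 0.05 there were 856 genes (4.21%), of which 545 were higher in SCA1 exercise mice (2.68%) and 311 lower (1.53%). In 1078 genes (5.3%) every SCA1 exercise mouse lay above every WT sedentary mouse, and in 1019 genes (5.01%) every one lay below. These shares are the background against which the gene groups below are read.

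The number of DEGs depended on the test. DESeq2 called 30 genes (0.144%) when fitted to all 12 libraries and 89 (0.418%) on the 2 groups alone, limma voom with library weights called 72 (0.354%), edgeR without mice 16 and 55 called 46 (0.224%), and edgeR with every gene of at least 1 count called 17 (0.0484%). Their direction differed as well: 22 of the 30 and 61 of the 89 DESeq2 calls were higher in SCA1 exercise mice, whereas 57 of the 72 voom calls and 30 of the 46 calls without mice 16 and 55 were lower. Without mouse 55 alone, edgeR called 3 genes (0.0144%), Lrp1b, Gm39465 and Myo15a. In all, 137 genes were called in at least 1 of 23 alternative settings, none in more than 5, and 6 genes reached that number.

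Most genes differed little. The median absolute log2FC was 0.13 over all genes tested and 0.068 over the 6534 genes with an average level of at least 5 on the log2 CPM scale (counts per 1000000 counts of the library). A 95% interval of the log2FC lay wholly within 0.5 of zero for 7964 genes (39.2%), and for 79.0% of those well expressed. An absolute log2FC over 0.5 was found for 2331 genes, 61 of them among the well expressed. The plot of differences against average level shows this narrow band and where 3 gene groups lie in it or outside it.

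**Figure D1:**
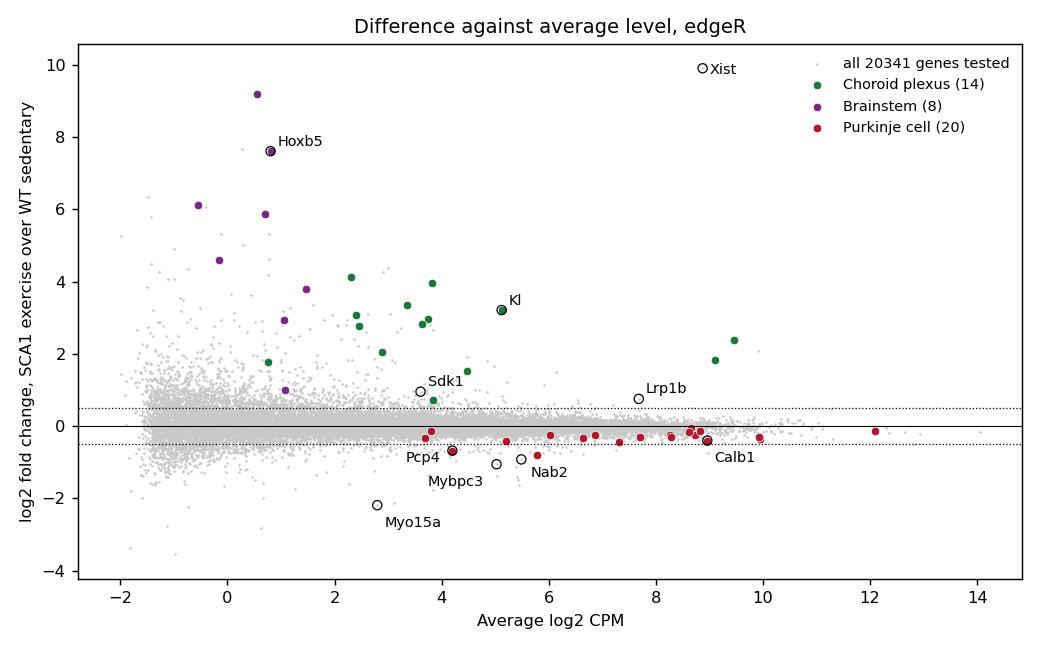
Each point is 1 of 20341 genes, with its average log2 CPM on the x axis and the edgeR log2FC of SCA1 exercise over WT sedentary mice on the y axis; dotted lines mark 0.5 and -0.5, coloured points are members of 3 gene lists, and circles mark genes named in the text. Choroid plexus genes lie above the band, brainstem genes are high at low average levels, and all 20 Purkinje cell genes lie below 0.

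The distance between whole transcriptomes was measured as the root mean square (RMS) difference of log2 CPM between pairs of mice. The 9 pairs of an SCA1 exercise and a WT sedentary mouse averaged 0.576, and the 6 pairs within the groups 0.554, a ratio of 1.04. An exact permutation test over the 10 divisions of the 6 mice gave p = 0.3, and the smallest p this design allows is 0.1. Mouse 198 lay closest to the WT sedentary mice (mean RMS difference 0.491), mouse 122 next (0.538) and mouse 55 farthest (0.699). The WT sedentary mice differed among themselves by 0.428 to 0.513, a range that holds the smallest distances of mice 122 and 198, 0.493 and 0.466. Without mouse 55 the ratio was 1.07 and exact p = 0.1, the smallest p 3 mice against 2 allow.

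The average distance from the same WT sedentary mice was also taken for the other groups. WT exercise mice were on average 0.534 from them, less than SCA1 exercise mice at 0.576, and SCA1 sedentary mice were farther, at 0.671. These averages share the WT sedentary libraries, and the SCA1 sedentary value includes mouse 16, whose pairs reached 0.886. The order of the averages was not tested.

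**Figure D2:**
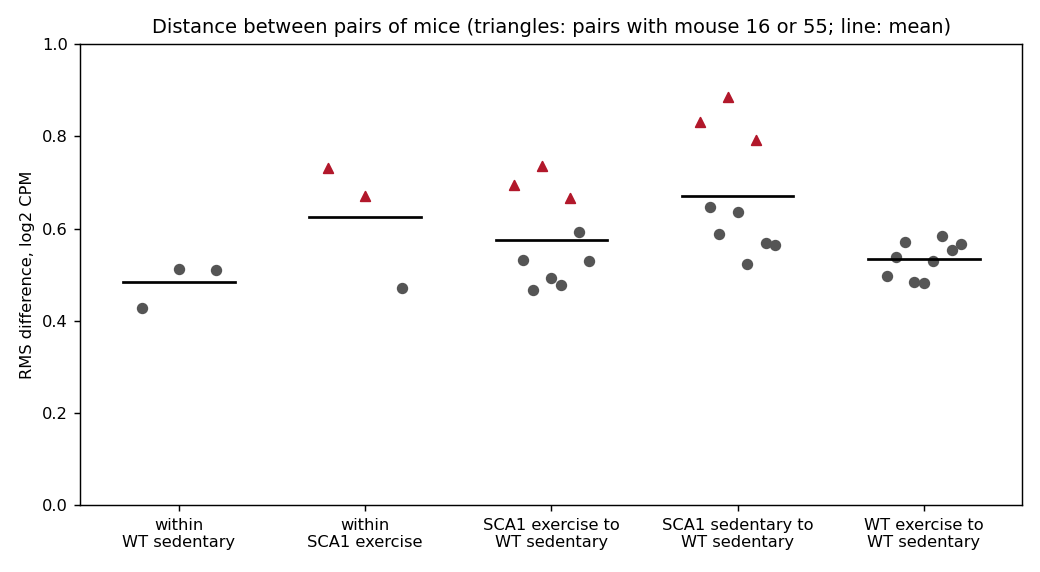
Each point is 1 pair of mice and the y axis is the RMS difference of log2 CPM over 20341 genes; lines are means and triangles mark pairs with mouse 16 or 55. Pairs of SCA1 exercise and WT sedentary mice without mouse 55 reach from 0.466 to 0.592, and pairs within WT sedentary mice from 0.428 to 0.513.

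Purkinje cell genes shared a direction. All 20 genes of the Purkinje cell list were tested, all 20 had a log2FC below 0, and the median was -0.29 against 0.0036 over all genes. At an unadjusted p under 0.05, 10 of the 20 were lower, where 1.53% of all genes were, and 7 were lower in every SCA1 exercise mouse than in every WT sedentary mouse, where 5.01% of all genes were. No member passed the adjusted threshold. In bulk tissue, fewer cells of a type and less RNA per cell cannot be told apart.

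Pcp4, which encodes a small regulator of calmodulin, lies on chromosome 16 (96268806 to 96326997, GRCm39). It had 18, 13.9 and 13.5 CPM in mice 55, 122 and 198, and 25.7, 23.9 and 23.3 CPM in mice 116, 117 and 192. The groups did not overlap, and mouse 55 was the SCA1 exercise mouse nearest to WT. The log2FC was -0.68 (SE 0.13), with an edgeR adjusted p of 0.561 and an unadjusted p of 0.000206, and DESeq2 on all libraries gave an adjusted p of 0.00236.

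Gng13, a G protein gamma subunit (chromosome 17, 25936145 to 25938380), showed the same order. Its CPM was 58.8, 36.2 and 38.2 in SCA1 exercise mice and 87.9, 65.8 and 76.3 in WT sedentary mice, with a log2FC of -0.79 (SE 0.19) that became -1.03 without mouse 55. The edgeR adjusted p was 0.701.

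Calb1, which encodes the calcium buffer calbindin and serves as the usual marker of Purkinje cells, lies on chromosome 4 (15881155 to 15908085). It had 466, 491 and 443 CPM in SCA1 exercise mice against 634, 669 and 543 CPM in WT sedentary mice. Here mouse 55 did not stand apart from mice 122 and 198. The log2FC was -0.40 (SE 0.11, 95% interval -0.64 to -0.15), with an edgeR adjusted p of 0.766, and voom with library weights gave 0.0204. By DESeq2 on all libraries the log2FC was -0.40 and by voom -0.46, both within 0.5 of zero, so neither called it a DEG. The study, by DESeq2, did not find it differentially expressed in this contrast either. Its quantitative PCR, however, showed lower calbindin expression in SCA1 than in WT mice, between the sedentary and between the exercised groups, with no effect of exercise.

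Pcp2, a modulator of G protein signalling found almost only in Purkinje cells among cerebellar neurons, and Itpka, an inositol trisphosphate kinase, were also lower in each SCA1 exercise mouse, by log2FC of -0.45 and -0.41. So were Inpp5a, an inositol polyphosphate phosphatase (log2FC -0.29), and the transcription factor Lhx1 (log2FC -0.25, unadjusted p = 0.076 by edgeR). Itpr1, the calcium channel of the endoplasmic reticulum, differed less, with a log2FC of -0.13. Foxp2 overlapped between the groups, with 13.0, 14.8 and 12.1 CPM against 10.4, 12.6 and 20.6 CPM.

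The plot of summed levels by mouse shows the Purkinje list beside choroid plexus and brainstem genes. Set against the same WT sedentary mice, its median log2FC was -0.50 in SCA1 sedentary mice, where 17 of 20 members were lower at an unadjusted p under 0.05 (4.55% of all genes), and -0.074 in WT exercise mice, where none was (1.91% of all genes). Against WT exercise mice, SCA1 exercise mice had a median of -0.22 and 4 members lower (1.48% of all genes). The summed level of the list was 10441, 9751 and 8440 CPM in SCA1 exercise mice, 6509 to 8518 CPM in SCA1 sedentary mice, and 10467 to 11796 CPM in WT sedentary mice. Mouse 55 thus reached almost the lowest WT sedentary mouse, while its granule cell genes were the lowest of its group. Without it the Purkinje median was -0.35 and 12 members were lower, where 827 of 20777 genes passed that threshold in either direction. Among the 8 male mice, with mouse 198 the only SCA1 exercise mouse, the Purkinje median was -0.46.

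**Figure D3:**
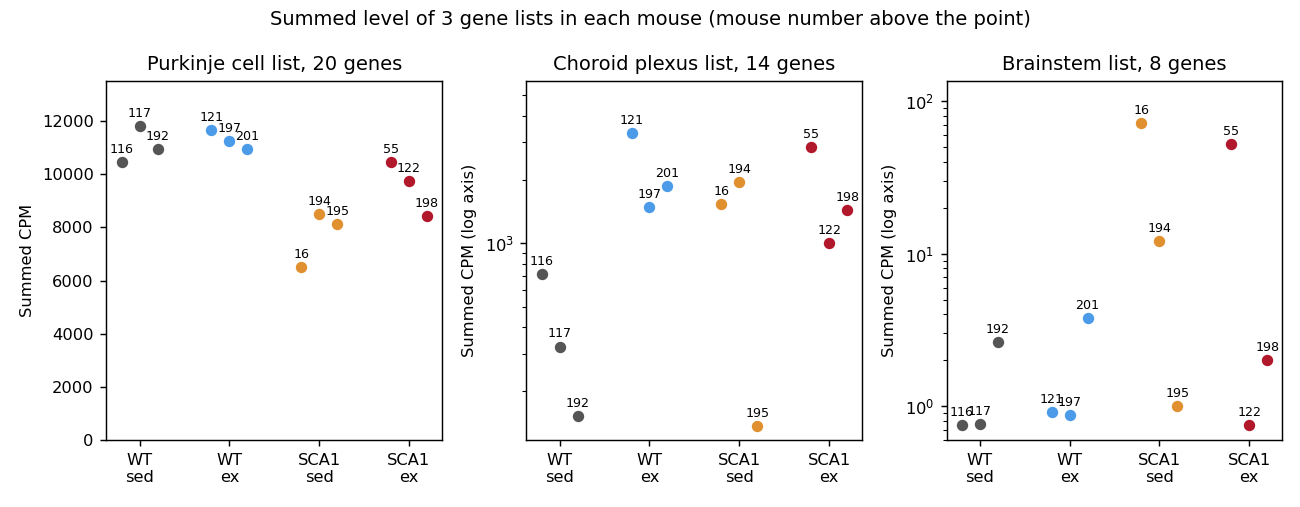
Each point is 1 mouse, labelled by its number, and the y axis is the summed CPM of a gene list (linear for Purkinje cell, logarithmic for choroid plexus and brainstem). Purkinje levels of SCA1 exercise mice run from 8440 to 10441 CPM, choroid plexus levels of WT sedentary mice are below those of every SCA1 exercise mouse, and mice 16 and 55 hold 71.8 and 52.1 CPM of brainstem genes.

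The bases before the start of Purkinje genes were searched for short motifs, since these genes all lay on 1 side of zero. RefSeq promoters on GRCm38.p6 were matched by symbol for 11 of the 20 members, and the 250 bases upstream of each start were read on both strands. The ROR motif AGGTCA, bound by RORα, a nuclear receptor that Purkinje cells need to mature, was found in 4 of the 11 (36.4%), namely Pcp2, Pcp4, Homer3 and Dner, and in 13.8% of 27025 promoters. The Capicua motif TGAATGAA was found in 0 of the 11 and in 1.09% of all promoters, the OTX2 motif TAATCC in 0 of the 11 and 6.38%, and the EGR motif GCGGGGGCG in 1 of the 11 and 2.56%. None of the 4 motifs contains another, and a match is only a match of letters. The 2 sequences below, the leading member and Homer3, a scaffold protein of Purkinje synapses, are shown 5′ to 3′ with the ROR motif or its reverse complement in capitals; Pcp4 is at chr16:96467356-96467605 and Homer3 at chr8:70282749-70282998, both on the plus strand of GRCm38.p6.
Pcp4: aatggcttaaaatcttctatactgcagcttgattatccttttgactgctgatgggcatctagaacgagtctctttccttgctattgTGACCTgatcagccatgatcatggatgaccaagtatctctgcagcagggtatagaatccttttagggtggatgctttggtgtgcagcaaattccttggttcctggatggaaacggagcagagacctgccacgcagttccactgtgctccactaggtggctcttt
Homer3: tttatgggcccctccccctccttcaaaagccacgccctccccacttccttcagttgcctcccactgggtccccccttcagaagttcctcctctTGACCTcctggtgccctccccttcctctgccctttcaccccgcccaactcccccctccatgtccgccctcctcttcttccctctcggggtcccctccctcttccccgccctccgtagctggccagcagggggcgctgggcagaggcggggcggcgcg
Homer3 had 240, 177 and 170 CPM in SCA1 exercise mice and 239, 243 and 242 CPM in WT sedentary mice, so mouse 55 was at the WT level.

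Outside the Purkinje list, the lower genes called in the largest number of alternative settings had larger differences. Mybpc3, a myosin-binding protein of heart muscle sarcomeres (chromosome 2, 90948489 to 90966861), had 29.4, 19.3 and 17.4 CPM in SCA1 exercise mice and 41.2, 45.6 and 50.6 CPM in WT sedentary mice. Every SCA1 exercise mouse lay below every WT sedentary mouse, and the log2FC was -1.05 (SE 0.21, edgeR adjusted p = 0.561). It was called in 5 of 23 alternatives, with an adjusted p of 0.00296 by DESeq2 on all libraries.

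Nab2, a corepressor that binds EGR transcription factors, had 37.2, 29.6 and 31.6 CPM in SCA1 exercise mice and 59.9, 56.7 and 69.5 CPM in WT sedentary mice. This was the gene with the smallest unadjusted p among the lower ones that 5 alternatives called, with a log2FC of -0.92 (SE 0.17) and an edgeR p of 0.000167. WT exercise mice lay between, with a log2FC of -0.30 against WT sedentary.

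Myo15a, an unconventional myosin known from the stereocilia of the inner ear, had 5.44, 1.38 and 1.37 CPM in SCA1 exercise mice and 10.4, 11.1 and 16.0 CPM in WT sedentary mice. Mouse 55 was well above mice 122 and 198, and all 3 were below every WT sedentary mouse. The log2FC of -2.19 (SE 0.48) became -3.16 without mouse 55, where edgeR gave an adjusted p of 0.0196.

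Il20rb, a receptor subunit for cytokines of the interleukin-20 family, had 32.0, 26.4 and 25.0 CPM against 58.0, 50.5 and 73.1 CPM, a log2FC of -1.12 (SE 0.28). Prom2, a prominin of membrane protrusions, had a log2FC of -0.88, Shisa8, an auxiliary subunit of AMPA receptors, -0.59, and Ccdc63, a coiled-coil protein, -1.23. In each of these the groups did not overlap, and the edgeR adjusted p was 0.561 or 0.701. By size alone, Gm39465, a long noncoding RNA, Car9, a carbonic anhydrase induced by low oxygen, and Rasal1, a Ras GTPase-activating protein, joined them, with log2FC of -1.76, -1.60 and -1.36. Without mouse 55, Car9 and Rasal1 had log2FC of -2.32 and -2.02.

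Gm39465 showed how far 1 mouse can carry a group mean. Its CPM was 15.3 in mouse 55, close to the 16.9, 20.6 and 25.5 CPM of WT sedentary mice, but 2.21 and 0.986 CPM in mice 122 and 198. The log2FC without mouse 55 was -3.69, with an edgeR adjusted p of 0.0238.

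Lrp1b and Sdk1 were higher in SCA1 exercise mice. In WT exercise mice their log2FC against the same WT sedentary mice were 0.064 and 0.23, and between the exercised groups the log2FC of SCA1 over WT were 0.69 and 0.72, with an edgeR adjusted p of 0.96 for both. Lrp1b, a large receptor of the low-density lipoprotein receptor family (chromosome 2, 40485258 to 42543636), had 180, 274 and 295 CPM in SCA1 exercise mice and 152, 150 and 142 CPM in WT sedentary mice. All 3 mice were above the WT range, mouse 55 by least. The log2FC was 0.75 (SE 0.15, edgeR adjusted p = 0.561), and 0.96 without mouse 55 with an adjusted p of 0.0196.

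Sdk1, a synaptic adhesion molecule of the immunoglobulin family (chromosome 5, 141227245 to 142201341), had 14.3, 13.7 and 13.3 CPM in SCA1 exercise mice and 5.62, 6.54 and 9.17 CPM in WT sedentary mice. The 3 SCA1 exercise mice were close together, and mouse 55 did not differ from the rest. The log2FC was 0.95 (SE 0.17), with an edgeR adjusted p of 0.561 and 0.000505 by DESeq2 on all libraries.

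**Figure D4:**
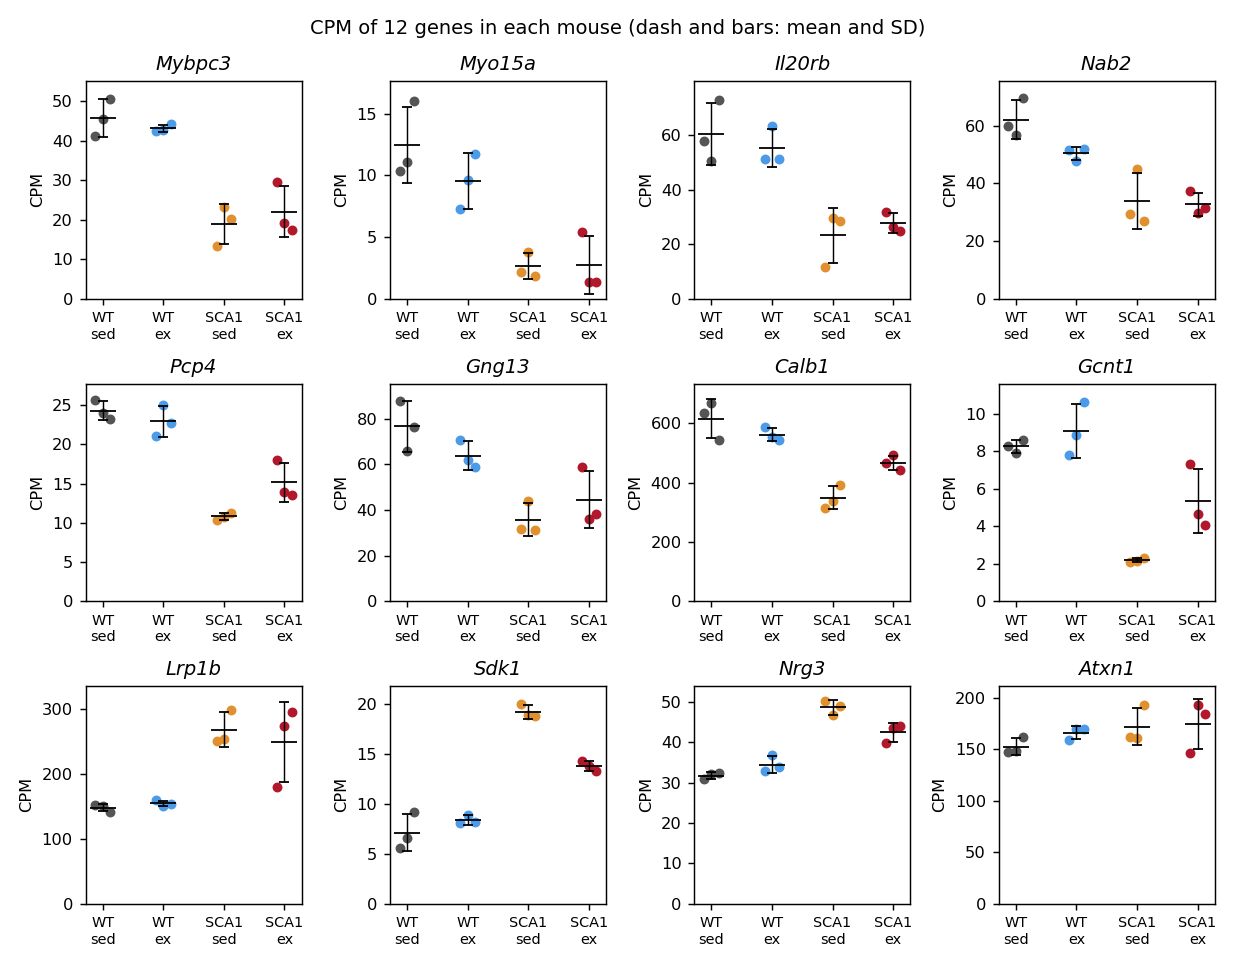
CPM of 12 genes in the 12 mice, 1 point per mouse on a linear axis from 0, with the mean (dash) and SD (bars) of each group of 3. For Mybpc3, Myo15a, Il20rb and Nab2 every SCA1 exercise mouse lies below both WT groups, for Lrp1b and Sdk1 above both, and for Pcp4, Calb1, Gcnt1 and Sdk1 the group lies between the SCA1 sedentary and WT sedentary mice.

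Untreated mutants had 7 DEGs against these WT sedentary mice (0.0344% of genes tested by edgeR). The study, by DESeq2 at the same thresholds, reported many more for that contrast, so the 7 do not measure its size. The 7 genes were chosen on these libraries, in a comparison that shares the WT sedentary mice, so their direction is not independent evidence. Their SCA1 sedentary values are the ones that chose them. In all 7, SCA1 exercise mice lay on the same side of WT sedentary mice without overlap, and in all 7 the log2FC was smaller than in SCA1 sedentary mice. Gcnt1, an enzyme that branches O-linked sugar chains (chromosome 19, 17303505 to 17350208), had the widest gap: 7.30, 4.67 and 4.07 CPM in SCA1 exercise mice, 2.12, 2.17 and 2.31 CPM in SCA1 sedentary mice and 8.27, 7.90 and 8.60 CPM in WT sedentary mice. Its log2FC against WT sedentary was -0.63 in SCA1 exercise and -1.91 in SCA1 sedentary mice. Between the SCA1 groups the difference was 1.28 (SE 0.23, unadjusted p = 9.36e-05, adjusted p = 0.999 by edgeR).

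For the other 6 the values side by side, SCA1 exercise first, were log2FC of -0.68 and -1.17 for Pcp4, -0.40 and -0.82 for Calb1 and -0.43 and -0.83 for Cep76, a centriolar protein. They were -0.50 and -0.67 for Hpcal1, a neuronal calcium sensor, 0.95 and 1.43 for Sdk1, and 0.42 and 0.61 for Nrg3, a ligand of the ErbB4 receptor. Hpcal1 in full had 162, 136 and 134 CPM in SCA1 exercise mice and 206, 199 and 205 CPM in WT sedentary mice. Against SCA1 sedentary mice, the differences of Pcp4, Calb1 and Cep76 were 0.49, 0.42 and 0.41, with unadjusted p of 0.00294, 0.00293 and 0.0029 and an adjusted p of 0.999 by edgeR; these tests share the SCA1 sedentary libraries that chose the genes. In that contrast 1.19% of all genes were higher at an unadjusted p under 0.05.

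Atxn1 itself did not differ beyond the spread between mice. It had 147, 193 and 184 CPM in SCA1 exercise mice and 148, 148 and 162 CPM in WT sedentary mice, a log2FC of 0.19 (SE 0.11, 95% interval -0.05 to 0.44), and the counts do not separate the expanded copy from the normal one. Its partner Cic, which encodes Capicua, had a log2FC of 0.02 (95% interval -0.25 to 0.29), which was -0.091 with sex as a covariate.

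The 17 genes listed for ataxin-1, its partners and the targets of Capicua had a median of 0.022. At an unadjusted p under 0.05, 1 was lower (1.53% of all genes) and none was higher (2.68%). That gene was Dusp5, a phosphatase of ERK kinases, with 65.4, 46.9 and 40.4 CPM against 75.5, 72.7 and 81.0 CPM (log2FC -0.58, edgeR adjusted p = 1). Among the remaining targets, Spry4, an inhibitor of growth factor signalling, was above the WT range in all 3 SCA1 exercise mice (log2FC 0.39, unadjusted p = 0.14), and Etv5 (log2FC 0.12) and Spred1 (0.16) overlapped.

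Genes the study had singled out for calcium-activated potassium and calcium channels differed little in total level in these libraries. Kcnma1, the BK channel, had 428, 381 and 341 CPM against 381, 466 and 428 CPM, a log2FC of -0.15 (95% interval -0.40 to 0.10). Cacna2d2, a calcium channel subunit, had a log2FC of -0.12 (95% interval -0.38 to 0.15). Both sets of values overlapped between the groups. By quantitative PCR, however, the study reported lower total Kcnma1 in SCA1 mice, exercised and sedentary, than in WT mice. Over the 18 neuronal ion channel genes the median was -0.077. In 3 of them every SCA1 exercise mouse lay below every WT sedentary mouse (5.01% of all genes). At an unadjusted p under 0.05, 1 was lower (1.53% of all genes), Kcnip1, an accessory subunit of A-type potassium channels (log2FC -0.42). Without mice 16 and 55, 5 were lower and 1 higher, where 1737 of 20494 genes passed that threshold in either direction.

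Choroid plexus genes were higher, and their list had the largest median log2FC once the brainstem list was set aside. All 14 members of the list were tested, all had a log2FC above 0, 12 were higher at an unadjusted p under 0.05 (2.68% of all genes), and 13 were higher in every SCA1 exercise mouse than in every WT sedentary mouse (5.3% of all genes). The median log2FC was 2.79, and no member passed the edgeR adjusted threshold, the lowest adjusted p being 0.701. Ttr, which encodes the thyroid hormone carrier transthyretin, had 1449, 470 and 790 CPM in SCA1 exercise mice and 382, 131 and 3.89 CPM in WT sedentary mice. WT sedentary mice alone spanned 3.89 to 382 CPM in Ttr, and its log2FC of 2.39 had an SE of 1.37.

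Kl, which encodes klotho, had 76.5, 25.3 and 30.8 CPM in SCA1 exercise mice and 8.74, 3.63 and 1.74 CPM in WT sedentary mice. Prlr, the prolactin receptor, had 24.1, 8.42 and 9.17 CPM against 1.70, 1.5 and 0.830 CPM. In both the groups were apart, mouse 55 was highest, and the log2FC were 3.21 (SE 0.91) and 3.36 (SE 0.79), or 2.57 and 2.72 without mouse 55. Aqp1, a water channel of the epithelium, Tmem72, a membrane protein, Sostdc1, an antagonist of BMP and Wnt signals, and Mfrp, a frizzled-related membrane protein that is not on the list, had log2FC of 3.08, 3.95, 4.12 and 4.39.

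The same genes were high in most mice of the other groups. Against WT sedentary mice, the list's median log2FC was 3.11 in WT exercise mice, where 13 of 14 were higher at an unadjusted p under 0.05 (2.78% of all genes), and 2.31 in SCA1 sedentary mice, where 9 were (5.55% of all genes). The summed level of the 14 genes was 2845, 1005 and 1439 CPM in SCA1 exercise mice and 1482 to 3324 CPM in WT exercise mice. All 3 WT sedentary mice (153 to 712 CPM) and 1 SCA1 sedentary mouse, number 195 (137 CPM), were low, while the other 2 SCA1 sedentary mice had 1528 and 1940 CPM. The part of the tissue taken at dissection in these differences was not tested. SCA1 exercise and WT exercise mice differed by a median log2FC of -0.37 over the list.

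Several of the higher genes called in the most alternative settings were likewise high in WT exercise mice. Msx1, a homeobox factor, had 9.17, 4.21 and 3.60 CPM in SCA1 exercise mice, 1.04, 1.11 and 1.02 CPM in WT sedentary mice and 7.49, 4.76 and 5.94 CPM in WT exercise mice. Its log2FC of 2.42 (SE 0.42) had the smallest unadjusted p of all named genes by edgeR, 8.49e-05, and an adjusted p of 0.561. Moxd1, an enzyme related to dopamine beta-hydroxylase, followed with 6.07, 2.46 and 2.53 CPM against 0.947, 0.555 and 0.189 CPM. Stra6, the cell-surface receptor for retinol uptake, Npr3, the clearance receptor of natriuretic peptides, Dsp, which encodes desmoplakin, Rbm47, an RNA-binding protein, Lbp, which binds lipopolysaccharide, and Oca2, a melanosomal protein, had log2FC of 1.32, 2.40, 3.34, 2.78, 2.22 and 5 in SCA1 exercise mice and of 1.67, 2.57, 3.62, 3.24, 2.81 and 4.95 in WT exercise mice, each against the same WT sedentary mice. In SCA1 exercise mice without mouse 55 the values were 1.15, 1.76, 2.54, 2.30, 1.60 and 4.56.

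Brainstem genes were high in 1 of the 3 SCA1 exercise mice. The list holds 16 genes, among them Hox genes, which are silent in the cerebellum, and the markers Chat and Tph2. Of the 16, 8 passed the filter on low counts, each with its highest count in mouse 16 or 55. Those 2 mice alone could not pass a gene, since the filter needs counts in 3 libraries. WT exercise mouse 201 had none of the 16 at 0 counts, with 16 counts of Hoxa5 and 24 of Hoxb5. Summed over those 8, mouse 55 had 52.1 CPM against 0.751 CPM in mouse 122, 2.01 CPM in mouse 198 and 0.757, 0.769 and 2.64 CPM in WT sedentary mice. Hoxb5 had 250 counts in mouse 55, 0 and 5 in mice 122 and 198, and 0, 1 and 0 in WT sedentary mice. None of the 16 was at 0 counts in mouse 55, against 12 in mouse 122 and 2 in mouse 198, and 9 to 11 in WT sedentary mice. No fold is given, because the values rest on 1 library. The part of brainstem tissue in the other values of mouse 55 was not tested. Slc6a5, the glycine transporter of cerebellar Golgi cells and of brainstem neurons, moved with it, with 144 CPM in mouse 55 and 39.6 and 54.8 CPM in mice 122 and 198 against 30.6 to 40.0 CPM in WT sedentary mice.

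Granule cell genes were lowest in the same mouse. All 12 members had a log2FC below 0, with a median of -0.28. At an unadjusted p under 0.05, 2 were lower (1.53% of all genes): Cbln1, a synaptic organizer secreted by granule cells (log2FC -0.39), and Slc17a7, the vesicular glutamate transporter (log2FC -0.29). The summed level was 4822 CPM in mouse 55, and 7036 and 6678 CPM in mice 122 and 198, against 7370 to 7601 CPM in WT sedentary mice. Without mouse 55 the median was -0.10 and no member was lower at that threshold, whereas without mice 16 and 55 the median was again -0.10 and 3 members were lower. In that last fit 1737 of 20494 genes passed the threshold in either direction, against 856 of 20341 in the main fit.

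Glial and vascular lists had medians near zero in the 6 mice. Over 14 Bergmann glia and astrocyte genes, 20 oligodendrocyte lineage genes, 17 microglia genes and 15 genes of endothelium and pericytes, 0 were higher or lower at an unadjusted p under 0.05 by edgeR, and the median log2FC were 0.02, 0.091, 0.0076 and -0.089. Without mouse 55 these medians were -0.16, -0.21, -0.15 and 0.0027, so the first 3 turned below 0. In that fit 1 Bergmann glia and astrocyte gene was lower at that threshold, where 827 of 20777 genes passed it in either direction. Without mice 16 and 55 the number was 3, where 1737 of 20494 genes passed it. Mouse 55 stood out in oligodendrocyte genes, as its summed level was 6501 CPM against 3061 and 4333 CPM in mice 122 and 198. Meninges and fibroblast genes had a median of 0.53, and without mouse 55 a median of 0.16. In the main fit 2 of 11 members, Igf2 and Ogn, were higher at an unadjusted p under 0.05 (2.68% of all genes). None was apart between the groups. Among males only, Igf2 and Ogn had log2FC of -0.014 and -0.10.

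**Figure D5:**
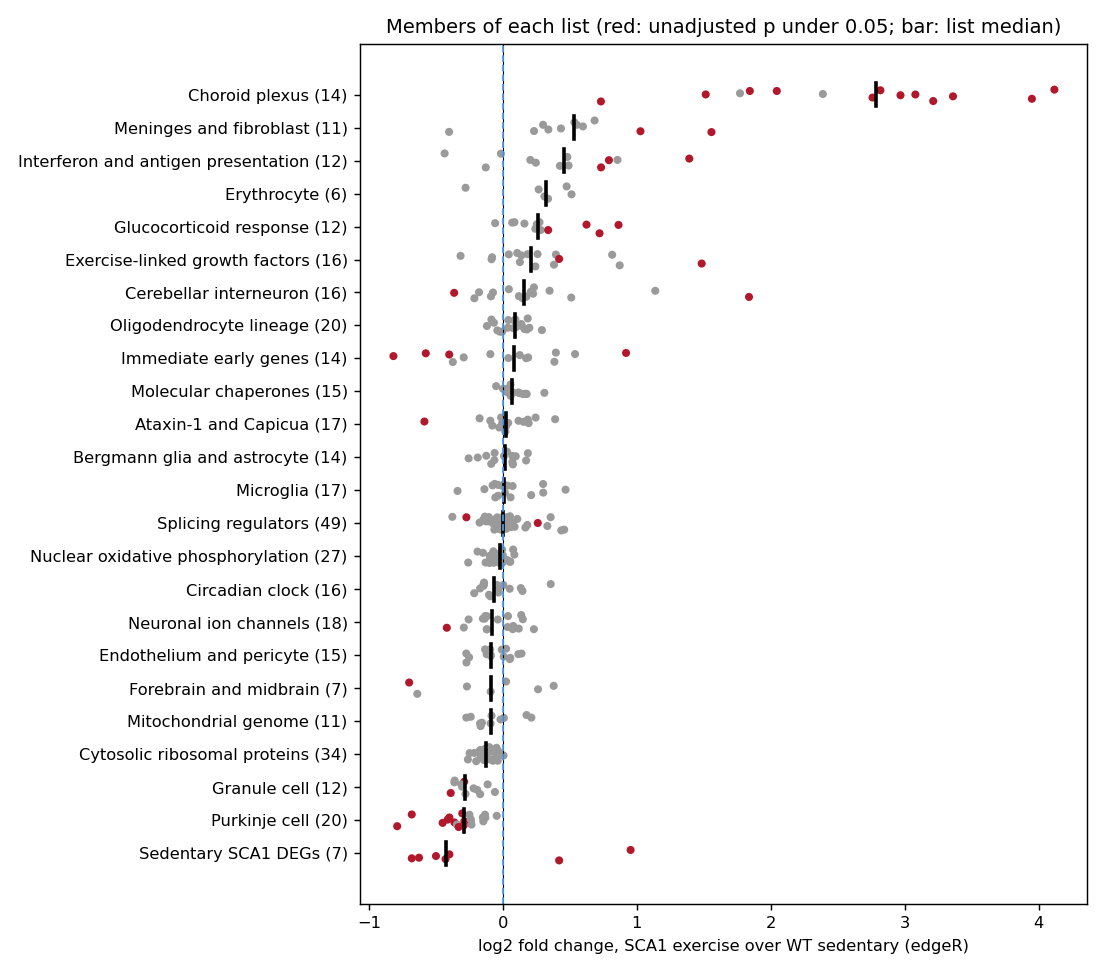
Each point is the edgeR log2FC of 1 gene, SCA1 exercise over WT sedentary mice, in 1 of 24 lists (number of genes tested in brackets), red where the unadjusted p was under 0.05; black bars are list medians and the dashed line is the median of all genes, 0.0036. Choroid plexus genes stand to the right, Purkinje and granule cell genes to the left, and most other lists are centred near 0; brainstem and sex marker genes are left out.

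Of 16 growth factor and exercise-linked genes, 13 had a log2FC above 0, with a median of 0.21. At an unadjusted p under 0.05 by edgeR, 2 were higher (2.68% of all genes) and 0 lower (1.53%). Nrg3, which is also 1 of the 7 DEGs above, was among the 2. In 5 every SCA1 exercise mouse lay above every WT sedentary mouse (5.3% of all genes). The list median was 0.23 with sex as a covariate and 0.050 among males only. Bdnf and Egf were 2 of the 3 members below 0. Bdnf, the neurotrophin most studied in exercise, had 13.5, 14.6 and 14.4 CPM in SCA1 exercise mice and 14.7, 16.2 and 14.1 CPM in WT sedentary mice, a log2FC of -0.08 (95% interval -0.46 to 0.30) that was 0.13 with sex as a covariate. Egf, epidermal growth factor, had 3.81, 4.92 and 4.93 CPM against 4.61, 6.75 and 5.66 CPM, a log2FC of -0.32 (95% interval -0.86 to 0.23). The groups overlapped in both.

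Glucocorticoid-responsive genes tended upward. Of 12 genes, 4 were higher at an unadjusted p under 0.05 by edgeR (2.68% of all genes) and 0 were lower. In 5 of them every SCA1 exercise mouse lay above every WT sedentary mouse (5.3% of all genes), and the list median was 0.26. Sgk1, a kinase induced by glucocorticoids, had 144, 105 and 108 CPM against 67.8, 67.0 and 81.5 CPM, with no overlap, a log2FC of 0.72 (SE 0.17) and an edgeR adjusted p of 0.701. Pdk4, which restrains pyruvate oxidation, had 11.2, 8.01 and 8.06 CPM against 5.21, 5.30 and 4.49 CPM (log2FC 0.86), and Fkbp5, a cochaperone of the glucocorticoid receptor, had a log2FC of 0.63. For Fkbp5 the log2FC against the same WT sedentary mice was 0.62 in WT exercise and 0.77 in SCA1 sedentary mice, and for Sgk1 0.33 and 0.31. Without mouse 55 the list median was 0.20 and 2 members were higher, where 447 of 20777 genes were. Among males only the list median was 0.10.

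Splicing regulators as a group were centred on zero, with a median of 0.0011. Of 49 tested, 1 was higher (2.68% of all genes) and 1 lower (1.53%) at an unadjusted p under 0.05. The lower one was Rbfox1, a neuronal splicing factor, with 238, 265 and 250 CPM against 282, 318 and 310 CPM (log2FC -0.27), and the higher one Tra2a (log2FC 0.26). These counts measure the amount of each gene's RNA and not how it was spliced. Molecular chaperones, which act on misfolded proteins, had a median of 0.066 over 15 genes, none past an unadjusted p of 0.05 by edgeR, and of -0.013 without mouse 55.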

How the data were processed

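Cerebellar RNA of 12 mice, 3 in each of 4 groups, was made into stranded libraries depleted of ribosomal RNA and sequenced as paired reads by the authors. They used FastQC 0.11.9, fastp 0.24.0 and STAR 2.7.10a, per the labels, with GRCm39; the annotation release is not given in the sources used here. The deposited values are raw counts per gene, from which the reverse-strand column was taken and 4 summary lines were dropped. Gene symbols and positions are those of GENCODE M39 (56323 of 56941 genes matched).

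In R 4.3.3, edgeR 4.0.16 (filterByExpr, TMM, quasi-likelihood test, Benjamini-Hochberg adjustment) fitted all 4 groups together, and SCA1 exercise was compared with WT sedentary. CPM was scaled by TMM, with a prior of 2 counts on the log2 scale. A two-sided exact permutation test per gene gave 0.1, the smallest p possible, wherever the groups were apart. Each replicate is a separate mouse. DESeq2 1.42.0, limma 3.58.1 and the settings in the closing section were alternatives, and the scripts were tested on simulated data. Members and gene lists were chosen with earlier results of these data known. Named genes were 7 the study discusses, up to 10 each way called in most alternatives, up to 6 each way by size among those with an average log2 CPM of at least 2, the 7 DEGs of SCA1 sedentary mice, and the 3 members of smallest p in each of 26 lists; further list members were named after their values were seen. The labels do not say which 2 samples had low RNA integrity. A gene named by the study and some list members are not reported here.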

Additional observations from a re-analysis of the deposited data

Results flagged for a closer look

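Brainstem genes appeared in libraries outside the comparison, above the level of the control mice. The summed level of the 8 tested brainstem genes was 71.8 CPM in SCA1 sedentary mouse 16 and 12.1 CPM in SCA1 sedentary mouse 194, against at most 2.64 CPM in WT sedentary mice. Mouse 16 does not enter the means of SCA1 exercise or WT sedentary mice, but it enters the estimate of the spread shared by all 4 groups, and without it 1423 genes had an unadjusted p under 0.05 by edgeR in place of 856.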

How the results depend on the processing

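The number of DEGs was the value that depended most on processing. It was 0 as reported, 30 by DESeq2 on 12 libraries, 89 by DESeq2 on 2 groups, 17 with every gene of at least 1 count, 72 by limma voom with library weights and 46 without mice 16 and 55; leaving out 1 mouse at a time gave 0 to 3, the 3 without mouse 55. The 2 DESeq2 fits shared 27 genes, and the voom fit and the fit without mice 16 and 55 shared 42. Genes at an unadjusted p under 0.05 numbered 2123 by voom, 1737 without mice 16 and 55, 404 among males only, and 617 (without mouse 116) to 1423 (without mouse 16) leaving out 1 mouse, and fell within 1.5 times of 856 otherwise. The distance ratio ran from 0.972 to 1.13 leaving out 1 mouse and from 1.02 to 1.11 otherwise, and the exact p reached 0.1, the smallest the design allows, without mouse 55 (ratio 1.07) and over genes with an average log2 CPM of at least 3 (ratio 1.09). The males-only fit, in which 1 SCA1 exercise mouse is assumed to vary like the other groups, and a distance without choroid plexus, brainstem and sex genes were chosen after seeing the data.

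Of 2539 log2FC values of 107 named genes under 24 alternatives, 2404 kept their direction and side of the threshold, 106 (36 genes) passed it, and 29 (15 genes) changed sign; the causes were not tested. With sex as a covariate these were Bdnf 0.13, Xist -0.90, Cic -0.091, Hspa1a -0.0029 and Kdm5d 0.047. Among males only they were Xist -1.27, Bag3 -0.0043, Cic -0.0053, Siglech -0.037, Igf2 -0.014, Fabp7 0.18, Cox7a2 0.030, Ogn -0.10, Atp5po 0.036, Hspa1a -0.21, Kdm5d 0.090 and Myrf -0.017. Voom gave Hspa1a -0.060 and Myrf -0.038. Without mice 16 and 55, Bcas1 was -0.090, Pdgfra -0.031, Hspa1a -0.025 and Myrf -0.17. Leaving out 1 mouse, Bcas1 ran from -0.090 to 0.44, Pdgfra from -0.031 to 0.44, Cic from -0.042 to 0.088, Hspa1a from -0.026 to 0.32 and Myrf from -0.17 to 0.35. No paired analysis was possible because the mouse numbers are not shared between groups. With 3 mice a group, a 95% interval within 0.5 of zero was reached for 39.2% of genes.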

Other observations

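Several smaller groups of genes were not described above. Of 14 immediate early genes, which neurons switch on with activity, 3 were lower at an unadjusted p under 0.05 by edgeR (1.53% of all genes). The number higher was 1 (2.68% of all genes). The list median was 0.084, with 8 of the 14 above 0. With sex as a covariate the median was 0.24, and 1 was higher and 1 lower, where 738 genes passed that threshold in either direction. Among males only the median was 0.14. Egr1 had 26.7, 24.5 and 24.1 CPM in SCA1 exercise mice and 29.0, 36.8 and 33.5 CPM in WT sedentary mice (log2FC -0.40), and Egr4 a log2FC of -0.82 and Ier2 of -0.57. Nr4a3, an orphan nuclear receptor, was higher, with 16.4, 14.1 and 11.6 CPM against 6, 7.18 and 9.09 CPM (log2FC 0.92). Fos overlapped widely, at 7.06, 3 and 7.07 CPM against 2.11, 5.64 and 4.11 CPM.

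Of 12 genes of the interferon response and antigen presentation, 3 were higher at an unadjusted p under 0.05 (2.68% of all genes), and none passed the adjusted threshold, the lowest edgeR adjusted p being 0.881. Isg15, a ubiquitin-like protein, had 1.19, 0.834 and 1.20 CPM against 0.6, 0.299 and 0.302 CPM, and Bst2 and Ifit1 had log2FC of 0.79 and 0.73. Their log2FC in WT exercise mice against the same controls were 0.95, 0.96 and 0.88. Over the 12 genes the median was 0.45 in SCA1 exercise mice and 0.49 in WT exercise mice, where 2 were higher (2.78% of all genes). In SCA1 sedentary mice the median was 0.50 and 5 were higher (5.55% of all genes), again against WT sedentary mice. Of 16 circadian clock genes, 34 cytosolic ribosomal protein genes, 27 nuclear and 11 mitochondrial genes of oxidative phosphorylation, 0 passed an unadjusted p of 0.05, and of the ribosomal genes 33 of 34 had a log2FC below 0, with a median of -0.13. The 6 erythrocyte genes and 7 forebrain and midbrain genes had medians of 0.32 and -0.09, which were -0.013 and -0.68 without mouse 55.

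Of 16 cerebellar interneuron genes, 1 was higher (2.68% of all genes) and 1 lower (1.53%) at an unadjusted p under 0.05 by edgeR. Their median log2FC of 0.16 was -0.026 without mouse 55. Of 5 sex marker genes, 1 was higher, Xist, the RNA of the inactive X chromosome, with groups that overlapped because mouse 198 was male.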
